A study of Mus musculus with 12 samples.

Results

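The genes described here are those that control the entry of pyruvate into mitochondrial oxidation: the 4 pyruvate dehydrogenase kinases Pdk1, Pdk2, Pdk3 and Pdk4, the 2 catalytic phosphatases Pdp1 and Pdp2 with the regulatory subunit Pdpr, and the mitochondrial pyruvate carrier subunits Mpc1 and Mpc2. The 9 were taken by name, not by a threshold on their values, and the transcripts that the annotation assigns to them were summed per gene. All 9 were present, as 16 of the 22699 listed transcripts and 9 of the 12287 genes that the table formed, and all 9 passed the filter on low values. RNA was sequenced from whole aortae of C57BL/6 mice at 7 weeks of age, 6 from animals labelled control and 6 from animals fasted for 24 h, with adhering fat dissected away before freezing. No genotype or other agent is labelled for either group. The comparison asks how a day without food alters RNA abundance in the aortic wall. Levels are in FPKM, which divides the fragments of a transcript by its length and by the total of its library, so genes of different length can be set side by side. Whether replicates were separate animals is not labelled, so each p-value rests on the spread between samples, some of which may be technical. Some libraries stood apart. Ucp1 of brown fat was highest in control replicate 6 and fasted replicates 1, 2 and 3. The sum of 6 cardiac markers was highest in fasted replicates 5 and 6, though Ryr2 among them was not. Fasted replicate 3 lay away from the rest. Calls for the 9 genes and for the pathway genes around them were repeated without these libraries, and the marker values close the account.

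The pyruvate dehydrogenase complex converts pyruvate to acetyl-CoA inside mitochondria and so commits carbohydrate carbon to oxidation. The kinases phosphorylate its E1 alpha subunit and switch the complex off, the phosphatases remove that phosphate and switch it on, and the carrier, a heteromer of Mpc1 and Mpc2, brings pyruvate across the inner mitochondrial membrane. Pdk4 is known in heart, skeletal muscle and liver as the kinase that starvation induces, where it spares glucose while fatty acids are burned.

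Of the 9 genes, 3 rose in fasted aortae and none fell at an adjusted p below 0.05, in a comparison where 31.7% of all tested genes passed in either direction, 13.8% higher and 17.9% lower. With median-of-ratios scaling the calls over all genes were 1974 higher and 1946 lower, in place of 1667 and 2154. The share of members that passed was thus close to that of all genes. Pdk4, Pdp2 and Pdk2 were the 3 that rose, by 5.42-fold, 1.78-fold and 1.20-fold in mean level. The median difference over the 9 was 0.06 on the log2(FPKM + 1) scale, against -0.02 over all 12063 tested genes. In 2 of the 9, Pdk4 and Pdp2, every fasted library lay above every control library, where the groups did not overlap for 17.0% of all tested genes. Only Pdk4 among the 9 had a log2 difference of at least 1 with an adjusted p below 0.05, which 1.04% of all tested genes had.

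The promoters of the 3 genes that rose are shown because these are the windows in which the motifs of regulators known from other tissues were sought. Each runs from 250 bases before to 50 bases after the annotated start, is written 5′ to 3′ on the strand of the gene, and comes from RefSeq on GRCm38.p6, where all of the 9 genes but Pdp1 had an entry. Capitals mark matches to the motifs named after the sequences. The Pdk4 window is chr6:5496229-5496528 on the minus strand, that of Pdp2 is chr8:104591222-104591521 on the plus strand, and that of Pdk2 is chr11:95041322-95041621 on the minus strand.
Pdk4: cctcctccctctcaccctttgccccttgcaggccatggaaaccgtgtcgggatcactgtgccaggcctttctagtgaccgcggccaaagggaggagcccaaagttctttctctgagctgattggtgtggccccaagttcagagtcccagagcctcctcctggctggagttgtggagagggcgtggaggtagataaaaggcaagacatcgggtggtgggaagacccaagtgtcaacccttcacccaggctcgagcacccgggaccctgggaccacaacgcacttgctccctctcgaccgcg
Pdp2: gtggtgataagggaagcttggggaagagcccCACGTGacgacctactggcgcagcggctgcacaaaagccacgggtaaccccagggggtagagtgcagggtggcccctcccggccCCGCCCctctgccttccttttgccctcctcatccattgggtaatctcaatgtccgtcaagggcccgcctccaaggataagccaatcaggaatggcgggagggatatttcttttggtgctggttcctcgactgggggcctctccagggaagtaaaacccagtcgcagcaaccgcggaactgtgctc
Pdk2: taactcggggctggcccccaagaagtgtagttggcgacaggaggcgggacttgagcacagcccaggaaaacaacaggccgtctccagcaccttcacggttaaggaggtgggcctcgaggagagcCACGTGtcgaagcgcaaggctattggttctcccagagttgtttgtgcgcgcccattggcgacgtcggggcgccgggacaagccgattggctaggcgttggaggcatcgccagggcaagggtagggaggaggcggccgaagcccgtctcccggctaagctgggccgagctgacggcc
Searched on both strands were AGAACA (glucocorticoid receptor half-site), AGGTCA (nuclear receptor half-site), TCAAGGTCA (estrogen-related receptor, which contains the previous one), GTAAACA (FoxO core), CACGTG (E-box), ACGTG (hypoxia core, which lies inside the E-box) and GGGCGG (GC box). The Pdk4 window held none of these 7 motifs. In the Pdp2 window, CACGTG began at position -219, counted from the start as 0, and a GC box on the opposite strand at -135. In the Pdk2 window, CACGTG began at -126, and Pdpr was the only other member with one, at -172. CACGTG occurred in 7.15% of all 32851 promoters of this length and GGGCGG in 35.7%. AGAACA occurred in 19.0% of them, AGGTCA in 16.3%, ACGTG in 19.6%, GTAAACA in 3.65% and TCAAGGTCA in 0.423%. The G and C content was 60.7% in the Pdk4 and Pdp2 windows and 64.7% in that of Pdk2, against a median of 52.7% over all promoters. A second RefSeq promoter of Pdk2 held none of the motifs. These matches describe letters in a window and say nothing of binding in these aortae.

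Pdk4 (ENSMUSG00000019577, chr6:5483351-5496309, minus strand, GRCm38) encodes the kinase isoform most responsive to nutritional state. Its level in the 6 control libraries, in replicate order, was 4.72, 4.36, 4.03, 4.57, 5.43 and 8.93 FPKM. In the 6 fasted libraries it was 28.3, 25.3, 19.7, 30.0, 42.0 and 28.2 FPKM. Every fasted library lay above the highest control, control replicate 6, which itself stood apart from the other 5 controls, and fasted replicate 5 was the highest of all. The mean went from 5.34 ± 1.82 to 28.9 ± 7.36 FPKM (SD, n = 6 per group), a difference of 2.24 ± 0.18 (SE; 95% interval 1.85 to 2.64) on the log2(FPKM + 1) scale with an adjusted p of 3.14e-06 in limma. By that difference it ranked 4 of the 12063 tested genes. With any 1 library left out the difference stayed between 2.13 and 2.38.

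Pdk2 (ENSMUSG00000038967, chr11:95026258-95041354, minus strand), a kinase expressed widely across tissues, had the highest mean of the 4 kinase genes in control aortae. From the lowest over the median to the highest library, its level ran from 11.95 over 14.9 to 17.1 FPKM in the control group and from 16.2 over 17.8 to 20.4 FPKM in the fasted group. The groups overlapped, with 4 of the 6 fasted libraries above all controls, and control replicate 3 was lowest and fasted replicate 3 highest. The mean went from 14.8 ± 1.70 to 17.8 ± 1.48 FPKM, a log2 difference of 0.26 ± 0.08 (95% interval 0.09 to 0.43; adjusted p = 0.0235 in limma). The call was lost with adipocyte marker scores as covariates (0.16, adjusted p = 0.253) and without control replicate 6 and fasted replicates 1, 2 and 3 together (0.20, adjusted p = 0.192), 4 libraries set aside after their marker values were seen. Gm11513, an annotated gene on the opposite strand that the table does not list, covers 36.6% of the span of Pdk2, and the sources used here do not say whether counting took account of strand.

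Pdk3 (ENSMUSG00000035232, chrX:93764607-93832201, minus strand), an X-linked kinase, and Pdk1 (ENSMUSG00000006494, chr2:71873224-71903858, plus strand), a kinase known as a target of hypoxia signalling, did not pass the test. Pdk3 ran from 11.5 over 12.3 to 13.2 FPKM among controls and from 9.91 over 13.0 to 14.1 FPKM among fasted libraries. The fasted range enclosed that of the controls, since fasted replicate 3 was below all of them and fasted replicate 5 above. The log2 difference of Pdk3 was 0.03 ± 0.07 (95% interval -0.13 to 0.18; adjusted p = 0.793), and without fasted replicate 5 it was -0.0027. Pdk1 had the lowest mean of the 9 genes in both groups and ran from 3.01 over 3.69 to 3.93 FPKM in control aortae and from 3.47 over 3.61 to 4.21 FPKM after the fast. The groups overlapped, and fasted replicate 6 alone lay above all controls. Its log2 difference was 0.04 ± 0.07 (95% interval -0.11 to 0.19; adjusted p = 0.689). The intervals of these 2 kinases ended at 0.18 and 0.19, well under the lower bound of 1.85 for Pdk4.

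**Figure D1:**
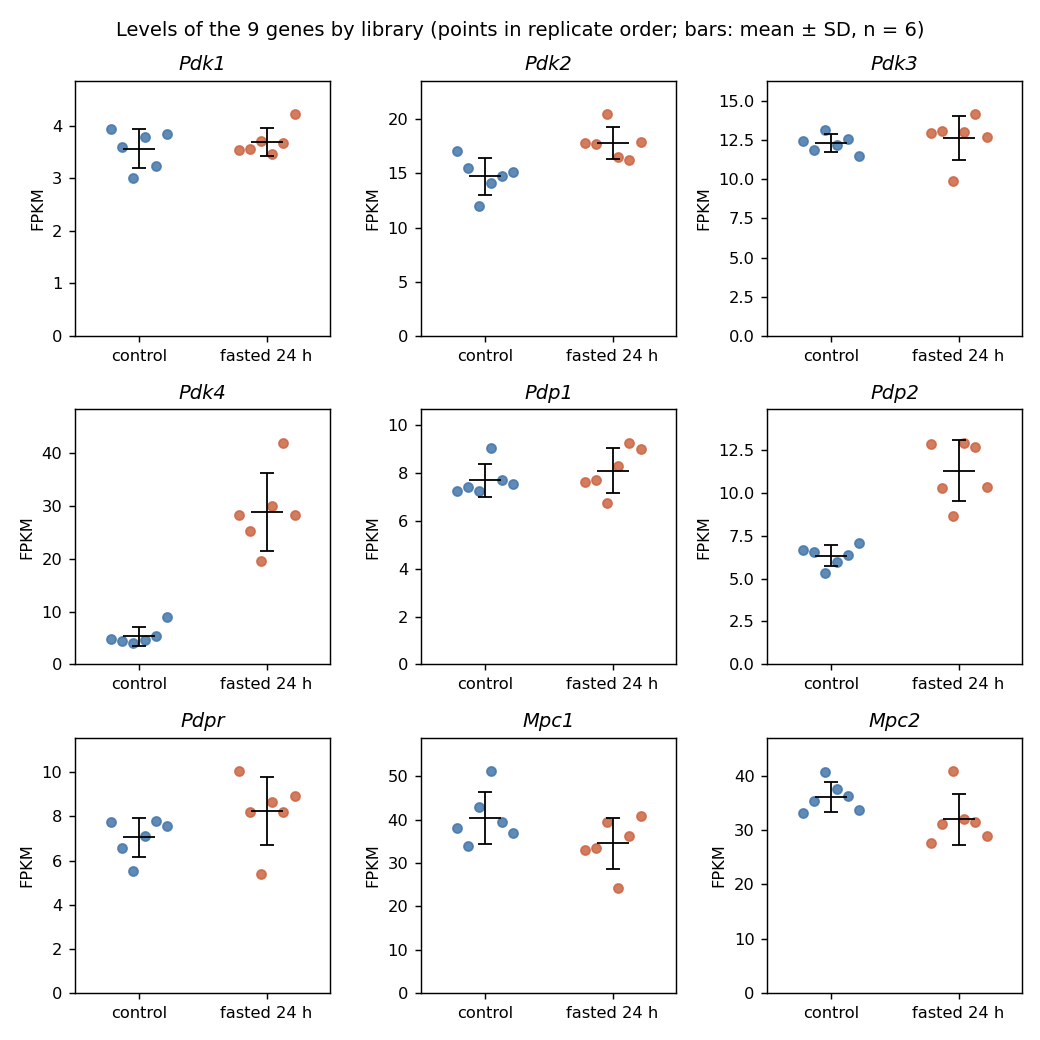
Level in FPKM of each of the 9 genes in every library, control in blue and fasted 24 h in orange, points in replicate order, with bars at the mean ± SD of 6 libraries per group and each axis starting at 0. Pdk4 and Pdp2 are the panels where the groups do not overlap; Pdk4 runs from 4.03 to 8.93 FPKM in the control group and from 19.7 to 42.0 FPKM in the fasted group.

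With the rise in Pdk4, the make-up of the kinase RNA differed between the groups. The summed level of the 4 kinase genes was 36.0 ± 2.58 FPKM in control and 63.0 ± 7.30 FPKM in fasted aortae, and the groups did not overlap. Without Pdk4 the sum was 30.6 ± 1.73 and 34.1 ± 0.584 FPKM, and the groups overlapped, with 5 of the 6 fasted libraries above all controls. Pdk4 made up 14.7% ± 4.05 of the kinase sum in controls, from 12.3% to 22.7%, and 45.3% ± 6.13 in fasted aortae, from 36.6% to 55.2%. The share of Pdk2 was 41.0% in controls and 28.7% in fasted aortae, that of Pdk3 34.4% and 20.1%, and that of Pdk1 9.91% and 5.91%. By mean level Pdk4 was above Pdk1 alone among the kinases in control aortae and above all 3 others in fasted aortae. These sums and shares are descriptions and were not tested. Equal FPKM of different kinases does not mean equal protein or activity.

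Pdp2 (ENSMUSG00000048371, chr8:104591451-104599026, plus strand) encodes one of the catalytic subunits of the phosphatase that reactivates the complex, and in rat its activity and amount are known to fall in starved heart and kidney. In these aortae its RNA rose. It ran from 5.32 over 6.48 to 7.09 FPKM among controls and from 8.66 over 11.5 to 12.9 FPKM among fasted libraries. The groups did not overlap, and fasted replicate 3 was the lowest of the fasted libraries for Pdp2 as for Pdk4. The mean went from 6.34 ± 0.618 to 11.3 ± 1.77 FPKM, a log2 difference of 0.73 ± 0.10 (95% interval 0.52 to 0.94; adjusted p = 1.41e-04 in limma), rank 195 of 12063 by size among differences upward. With any 1 library left out the difference was between 0.69 and 0.80.

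Pdp1 (ENSMUSG00000049225, chr4:11958184-11966452, minus strand) encodes the other catalytic subunit, the calcium-sensitive one that is prominent in muscle. It ran from 7.23 over 7.47 to 9.05 FPKM in control aortae and from 6.75 over 7.998 to 9.27 FPKM after the fast. The groups overlapped, with control replicate 4 apart from the other controls, and the log2 difference was 0.06 ± 0.08 (95% interval -0.10 to 0.23; adjusted p = 0.571). Pdpr (ENSMUSG00000033624, chr8:111094630-111137074, plus strand), the regulatory subunit known to lower the sensitivity of the phosphatase to magnesium, ran from 5.54 over 7.35 to 7.80 FPKM in the control group and from 5.40 over 8.44 to 10.1 FPKM in the fasted group. In 5 fasted libraries Pdpr lay above all controls and in fasted replicate 3 below all of them. Its log2 difference was 0.19 ± 0.12 (95% interval -0.07 to 0.45; adjusted p = 0.264), and without fasted replicate 3 it was 0.29 with an adjusted p of 0.0208. On the opposite strand, 9430091E24Rik, which the table does not list, covers 19.3% of Pdpr.

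The catalytic phosphatase genes together summed to 14.03 ± 0.848 FPKM in control and 19.4 ± 2.39 FPKM in fasted aortae without overlap. Pdp2 made up 45.2% of that sum in controls and 58.0% in fasted aortae, so the order of the 2 phosphatases by mean level changed. The kinase sum was 2.56 ± 0.153 times the phosphatase sum in controls, from 2.30 to 2.74, and 3.26 ± 0.207 times in fasted aortae, from 2.98 to 3.49. With Pdk4 left out of the kinases that ratio was 2.19 ± 0.140 in controls and 1.79 ± 0.250 in fasted aortae, the opposite order. Pdk4 stood at 0.834 ± 0.218 times Pdp2 in controls and at 2.55 ± 0.416 times Pdp2 in fasted aortae. RNA of a kinase and of an opposing phosphatase was thus higher in the same group, and the ratio of the former to the latter did not overlap between the groups.

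**Figure D2:**
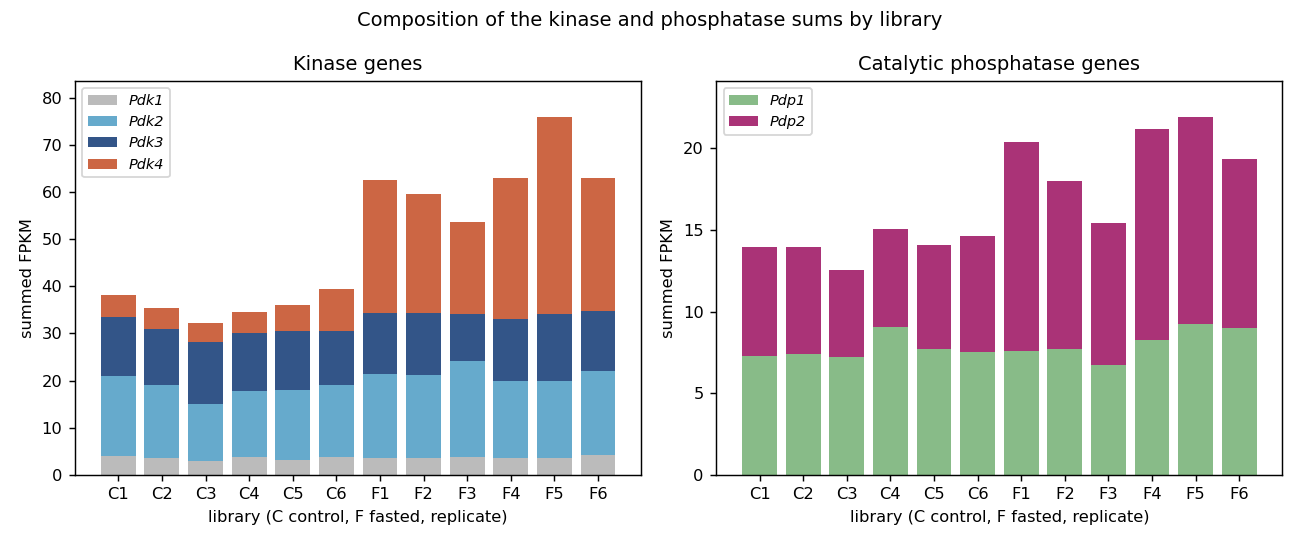
Summed FPKM of the kinase genes (left) and the catalytic phosphatase genes (right) in each library, C1 to C6 control and F1 to F6 fasted by replicate, stacked by gene from 0. The Pdk4 segment makes up 12.3% to 22.7% of the kinase sum in controls and 36.6% to 55.2% in fasted libraries, while the sum of the other kinases goes from a mean of 30.6 to 34.1 FPKM.

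The carrier subunits had the highest means of the 9 genes in both groups. Their means were lower after the fast, but neither passed the test. Mpc1 (ENSMUSG00000023861, chr17:8282904-8297661, plus strand) ran from 34.0 over 38.8 to 51.2 FPKM among controls and from 24.2 over 34.9 to 40.9 FPKM among fasted libraries. The groups overlapped, with 3 fasted libraries below all controls and fasted replicate 4 lowest. Its log2 difference was -0.23 ± 0.12 (95% interval -0.50 to 0.04; adjusted p = 0.178). It was -0.13 without fasted replicate 4 (adjusted p = 0.337) and -0.41 with the most abundant transcript alone (adjusted p = 0.0620). Mpc2 (ENSMUSG00000026568, chr1:165460637-165481214, plus strand) ran from 33.2 over 35.8 to 40.7 FPKM in control aortae and from 27.6 over 31.4 to 40.9 FPKM after the fast. In 5 fasted libraries Mpc2 lay below all controls, and fasted replicate 3 was the highest of all 12. Its log2 difference was -0.18 ± 0.09 (95% interval -0.36 to 0.01; adjusted p = 0.129), and without fasted replicate 3 it was -0.25 with an adjusted p of 0.00749. The ratio of Mpc1 to Mpc2, whose proteins pair in the carrier, was 1.12 ± 0.135 in controls and 1.09 ± 0.224 in fasted aortae. Annotated genes that the table does not list overlap both: 4930506C21Rik on the opposite strand covers 29.1% of Mpc1, and Gm37860 on the same strand covers 5.0% of Mpc2.

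In order of mean level, control aortae held Mpc1, Mpc2, Pdk2, Pdk3, Pdp1, Pdpr, Pdp2, Pdk4 and Pdk1, from 40.4 down to 3.56 FPKM. Between neighbours in that order the ranges over libraries were apart only between Mpc2 and Pdk2, between Pdk3 and Pdp1, and between Pdk4 and Pdk1. Fasted aortae held Mpc1, Mpc2, Pdk4, Pdk2, Pdk3, Pdp2, Pdpr, Pdp1 and Pdk1, from 34.5 down to 3.69 FPKM. There the ranges were apart between Pdk2 and Pdk3 and between Pdp1 and Pdk1, and all other neighbours overlapped. Pdk4 thus moved from place 8 of the 9 to place 3, next to the carrier subunits, and Pdp2 from place 7 to place 6.

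**Figure D3:**
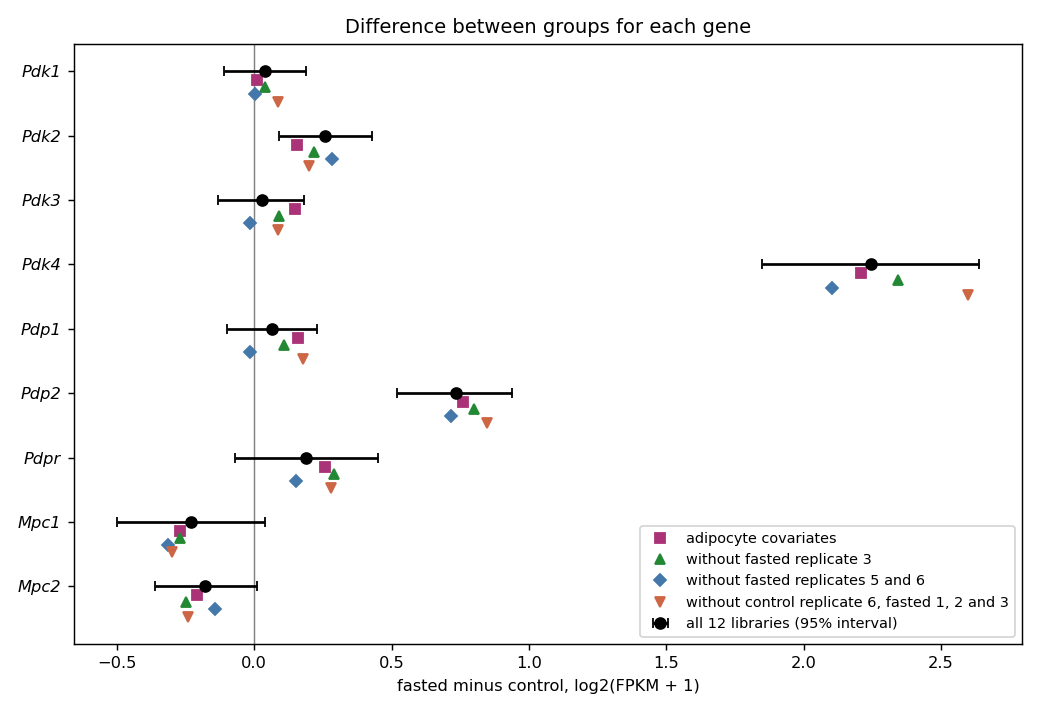
Difference in log2(FPKM + 1), fasted less control, for each gene, black points with 95% intervals from all 12 libraries and coloured symbols for fits with marker covariates or without the libraries named in the key. Pdk4 (2.24) and Pdp2 (0.73) stay clear of 0 under each, Pdk2 moves to 0.16 with adipocyte covariates, and Pdk3 and Pdp1 lie near 0 on either side.

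Only Mpc1, Pdp1 and Pdpr had more than 1 listed transcript. The table listed 16 of the 42 transcripts that GENCODE M21 annotates for the 9 genes. Of these 16, 4 passed the transcript test, where 16.2% of all 20599 tested transcripts did: the single transcripts of Pdk4, Pdp2 and Pdk2, and 1 minor transcript of Pdp1. That transcript, ENSMUST00000108299, had 0.677 ± 0.237 FPKM in controls. It was listed at 0 in fasted replicates 1, 3, 4 and 6 and at 0.670 and 0.343 FPKM in the other 2. With a fasted mean of 0.169 FPKM, it met the mean of 0.5 FPKM of the authors' table through the control group alone. Among fasted libraries only replicate 2 reached 0.5 FPKM. This transcript was thus kept because of the group where it was high, and its call is not independent of that selection. Its log2 difference was -0.54 ± 0.14 with an adjusted p of 0.0240, and the call was lost when any 1 of control replicate 5 or fasted replicates 1, 4 and 6 was left out (adjusted p from 0.0505 to 0.0531). It was also lost with adipocyte covariates (-0.51, adjusted p = 0.134), without fasted replicates 5 and 6 together (-0.55, adjusted p = 0.0614) and without control replicate 6 and fasted replicates 1, 2 and 3 together (-0.59, adjusted p = 0.0558). The main transcript of Pdp1, ENSMUST00000108297, made up 84.99% ± 9.30 of the gene in controls and 90.9% ± 3.26 in fasted aortae. The main transcript of Pdpr, ENSMUST00000039333, made up 91.4% ± 1.39 and 93.0% ± 1.78.

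For Mpc1, ENSMUST00000155364 made up 65.3% ± 6.53 of the level in controls and 58.6% ± 14.7 in fasted aortae, and ENSMUST00000046754 made up 27.2% ± 5.16 and 35.5% ± 15.4. Both have 5 exons and a coding sequence of 327 bases. Over the 920 bases of the shorter they differ by 1 base, with a further 34 bases at the 5′ end and 4 at the 3′ end of the longer, so that few fragments can tell them apart. The share of ENSMUST00000046754 ran from 10.8% in fasted replicate 4 to 58.3% in fasted replicate 3, a wider spread than the 17.9% to 31.3% of the controls. None of the tested shares of the 3 genes passed (adjusted p from 0.575 to 0.981 in limma), where 0.362% of all 14107 tested shares did. The share of ENSMUST00000108299, the Pdp1 transcript that passed the transcript test, was not tested. That transcript averaged under 0.5 FPKM over all libraries.

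Deviations from the group mean show whether libraries of one group that hold more Pdk4 also hold more of another gene. Over the 12 libraries, the genes most like Pdk4 by this measure were Dcp2 (Pearson r = 0.951, Spearman rho = 0.818), Psat1 (0.937 and 0.825), Gbgt1 (0.913 and 0.755), Ap4e1 (0.902 and 0.972) and Txnip (0.894 and 0.846). They were picked as the 5 highest of 12063, so these values are a description with no test, and libraries share depth and tissue make-up. Without control replicate 6 and fasted replicate 5, the libraries where Pdk4 lay farthest from the middle, r was 0.844, 0.803, 0.786, 0.936 and 0.809 in the same order. Txnip, the thioredoxin-interacting protein known to restrain glucose uptake, had 72.7 ± 19.0 FPKM in control and 133 ± 30.4 FPKM in fasted aortae and rose by 0.87 ± 0.18 (adjusted p = 0.00277). Ap4e1, a subunit of a vesicle adaptor complex, rose from 4.68 ± 0.213 to 6.23 ± 0.461 FPKM (0.35 ± 0.06, adjusted p = 5.75e-04). Dcp2, the mRNA decapping enzyme (-0.03, adjusted p = 0.819), Psat1, an enzyme of serine synthesis (-0.22, adjusted p = 0.255), and Gbgt1 (0.11, adjusted p = 0.564) did not pass between the groups. Among the members, Pdp2 had the highest r with Pdk4 over the 12 libraries (r = 0.729, rho = 0.783, and r = 0.807 without those 2 libraries). Without the 2 libraries Pdpr was the highest (r = 0.916, against r = 0.556 and rho = 0.643 with all 12). Mpc2 had r = -0.521 and rho = -0.399 with all libraries and r = -0.781 without the 2.

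The subunit genes of the complex that these kinases and phosphatases act on had differences well below that of Pdk4. Of its 5 subunit genes 2 rose and none fell, with a median log2 difference of 0.11, where 31.7% of all tested genes passed. Pdhb, the E1 beta subunit, rose from 33.1 ± 1.60 to 39.2 ± 2.39 FPKM without overlap (0.24 ± 0.05, adjusted p = 0.00309), and Pdha1, the E1 alpha subunit that the kinases phosphorylate, rose from 60.7 ± 3.63 to 71.5 ± 5.47 FPKM (0.23 ± 0.06, adjusted p = 0.00996). Dlat, the E2 subunit (0.11, adjusted p = 0.239), and Dld, the E3 subunit (0.03, adjusted p = 0.660), did not pass. Set against the gene of its substrate, Pdk4 stood at 0.0881 ± 0.0298 of Pdha1 in controls and at 0.402 ± 0.0826 in fasted aortae. The whole kinase sum stood at 0.594 ± 0.0545 and 0.881 ± 0.0699 of Pdha1, without overlap.

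Lipoate is the cofactor that forms the swinging arm of E2. None of 5 genes for its attachment passed the test (median -0.19), where 31.7% of all tested genes did. The smallest p-values there were those of Lipt2 (-0.19, adjusted p = 0.0697), Nfu1 (-0.21, adjusted p = 0.0734), Lias, the lipoate synthase (0.18, adjusted p = 0.0787), and Lipt1 (-0.25, adjusted p = 0.216).

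Among 16 genes for pyruvate supply and its other fates, 3 rose and 4 fell, with a median of -0.12. Over all tested genes 13.8% rose and 17.9% fell. Me1, the cytosolic malic enzyme that makes pyruvate and NADPH, fell from 31.6 ± 2.16 to 24.2 ± 1.29 FPKM without overlap (-0.37 ± 0.05, adjusted p = 2.88e-04). Ldhb, the lactate dehydrogenase subunit found in oxidative tissue, rose from 56.0 ± 2.97 to 70.0 ± 4.75 FPKM without overlap (0.32 ± 0.05, adjusted p = 7.28e-04), while Ldha, the subunit of glycolytic tissue, had -0.19 (adjusted p = 0.109). Pck1, the cytosolic enzyme of gluconeogenesis and glyceroneogenesis, which adipocytes also express, rose from 1.23 ± 1.40 to 7.31 ± 4.64 FPKM (1.90 ± 0.41, adjusted p = 0.00367). Bsg, the chaperone of the lactate and pyruvate transporters of the plasma membrane, fell from 168 ± 16.2 to 138 ± 7.24 FPKM (-0.28 ± 0.07, adjusted p = 0.00629). The other 3 that passed were Slc16a7, a plasma membrane pyruvate transporter (-0.30, adjusted p = 0.0266), Me2, the mitochondrial malic enzyme (-0.23, adjusted p = 0.0427), and Pck2, the mitochondrial form of Pck1 (0.44, adjusted p = 0.0296).

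The branched-chain keto acid dehydrogenase is a related complex with a kinase and a phosphatase of its own. Of 5 genes 1 rose and none fell, with a median of 0.13, where 31.7% of all tested genes passed. Bckdha, its E1 alpha subunit, rose from 19.4 ± 1.36 to 27.0 ± 1.38 FPKM without overlap (0.46 ± 0.05, adjusted p = 5.5e-05). Its phosphatase Ppm1k had 0.38 ± 0.15 (adjusted p = 0.0641), its E2 subunit Dbt had 0.13 (adjusted p = 0.213) and its kinase Bckdk had -0.09 (adjusted p = 0.632). The difference of Bckdk from Pdk4 was not tested, but the 95% intervals, -0.38 to 0.19 for Bckdk and 1.85 to 2.64 for Pdk4, lay far apart.

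Of 12 transcription regulators reported in other tissues for the kinase genes, 4 rose and 1 fell, with a median of 0.16. Over all tested genes 13.8% rose and 17.9% fell. Foxo1, a factor known to act on Pdk4 in muscle, rose from 13.0 ± 0.938 to 17.1 ± 1.40 FPKM without overlap (0.36 ± 0.06, adjusted p = 9.20e-04). Nr3c1, the glucocorticoid receptor, fell from 43.5 ± 2.58 to 35.4 ± 2.33 FPKM without overlap (-0.29 ± 0.06, adjusted p = 0.00154). Pparg rose from 0.853 ± 0.272 to 1.29 ± 0.182 FPKM (0.31 ± 0.10, adjusted p = 0.0327), and Ppargc1b from 0.845 ± 0.0900 to 1.14 ± 0.187 FPKM (0.21 ± 0.07, adjusted p = 0.0393). Foxo3 also rose (0.38, adjusted p = 0.0422). Ppara, the receptor through which fatty acids act on Pdk4 in liver, was low in these aortae, with 0.464 ± 0.389 FPKM in control and 0.670 ± 0.555 FPKM in fasted libraries (0.17, adjusted p = 0.633).

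Of the 15 genes in these lists that passed, 8 also passed in each of 4 further fits, with adipocyte covariates, with a cardiac covariate, without fasted replicates 5 and 6, and without control replicate 6 and fasted replicates 1, 2 and 3. These 8 were Pdhb, Pdha1, Me1, Ldhb, Pck1, Bckdha, Foxo1 and Nr3c1, and Pck1 had 1.12 with adipocyte covariates (adjusted p = 0.0163). The other 7 lost their call in at least 1 of the 4. These fits use fewer libraries or added covariates, and how many of all called genes would pass in all 4 was not computed. The 8 and 7 therefore cannot be set against all tested genes, of which 31.7% passed with all 12 libraries. With adipocyte covariates Bsg had -0.26 (adjusted p = 0.0543), Slc16a7 -0.19 (0.204), Me2 -0.14 (0.284), Pck2 0.40 (0.142), Ppargc1b 0.13 (0.305) and Foxo3 0.44 (0.0546). Pparg passed there (0.43, adjusted p = 0.0315) but not without fasted replicates 5 and 6 (0.34, adjusted p = 0.0602) or without the set of 4 libraries (0.24, adjusted p = 0.138). Leaving out 1 library ended the call of Foxo3 for 10 of the 12 libraries, of Me2 for 9, of Ppargc1b for 8, of Pck2 and Pparg for 7 each and of Slc16a7 for 4, with adjusted p up to 0.0893. With the most abundant transcript alone, Nr3c1 had -1.05 (adjusted p = 0.493) and Slc16a7 had 0.37 (adjusted p = 0.644), and neither passed.

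**Figure D4:**
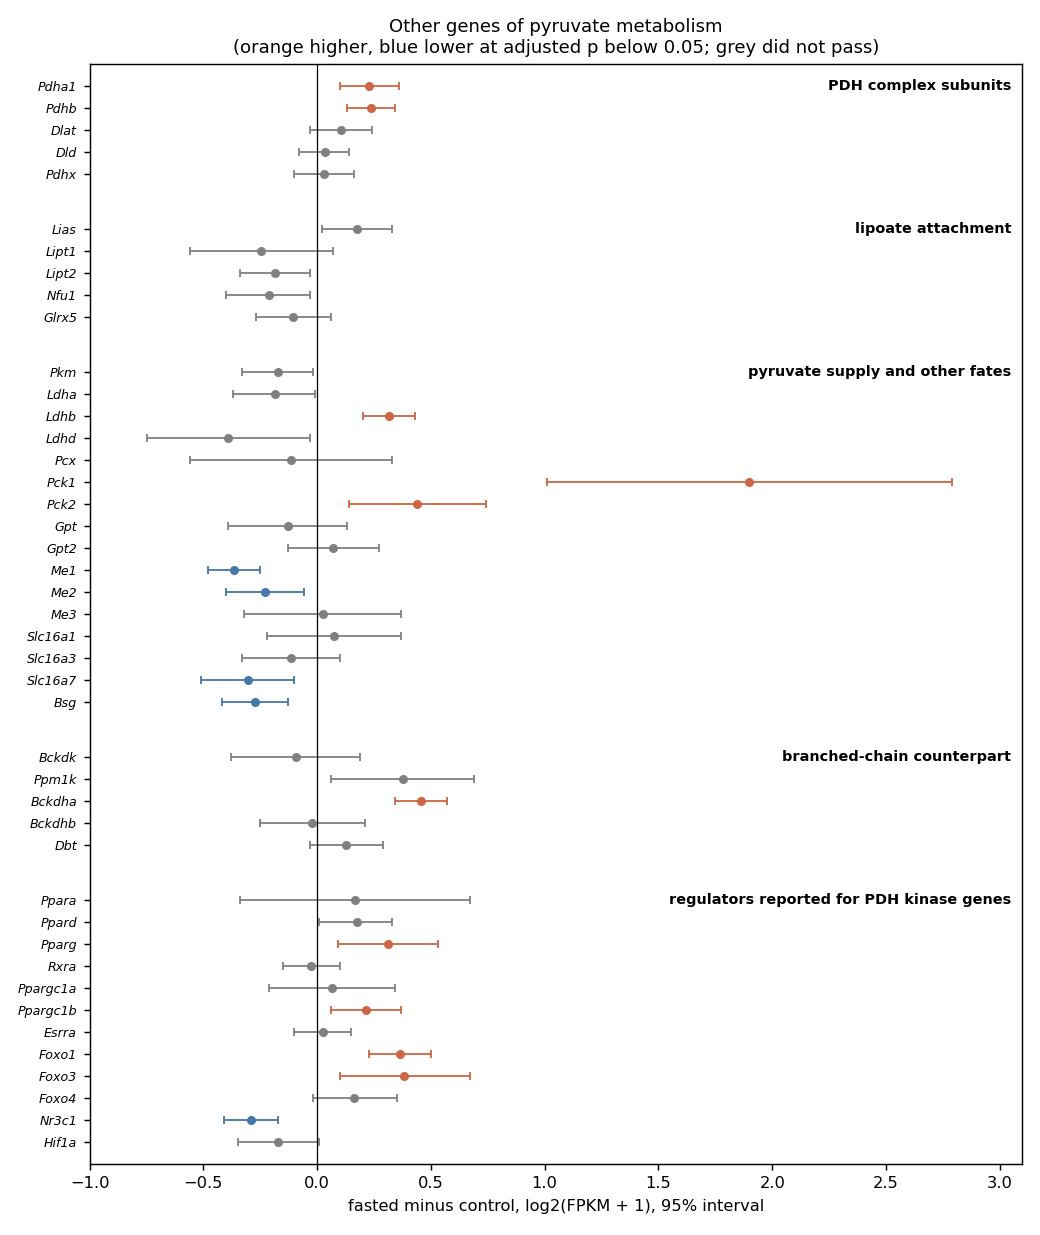
Difference in log2(FPKM + 1), fasted less control, with 95% intervals for the tested genes of 5 lists around the complex. Orange genes were higher and blue ones lower at an adjusted p below 0.05, and grey ones did not pass; Pck1 (1.90) lies farthest to the right and Me1 (-0.37) and Nr3c1 (-0.29) are among the blue.

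The label of aorta was checked against markers, and those of smooth muscle (Acta2, Myh11, Tagln, Cnn1, Smtn and Des) summed to 8349 to 10469 FPKM in the control group and 8136 to 9334 FPKM in the fasted group. Of these 6, Cnn1, the calponin of smooth muscle, fell (-0.17, adjusted p = 0.0483) and none rose. In bulk RNA, fewer cells of a type and less RNA per cell cannot be told apart. Markers of other cells differed between libraries. Of 4 listed brown adipocyte markers 1, Cidea, rose (0.74, adjusted p = 0.00341 in limma). The sum of the 4 was 10.8 to 34.6 FPKM among controls and 19.9 to 68.1 FPKM among fasted libraries. Ucp1, which defines brown fat, was 0.130 to 0.245 FPKM in controls 1 to 5 and 6.52 FPKM in control replicate 6, the control with the most Pdk4. In the fasted libraries Ucp1 was 13.5, 3.95, 15.8, 0.305, 2.08 and 0.845 FPKM in replicate order. Of 5 listed white and general adipocyte markers 1, Cidec, rose without overlap (1.53, adjusted p = 0.00421 in limma). The sum of the 5 was 22.4 to 49.2 FPKM in control aortae and 14.5 to 137 FPKM after the fast, highest in fasted replicate 3. Of 5 tested cardiac markers 1, Tnnt2, rose without overlap (1.44, adjusted p = 0.0105 in limma). It was 25.2 to 135 FPKM in fasted libraries and at most 23.8 FPKM in controls. The sum of all 6 was 26.1 to 47.6 FPKM in controls and 35.8 to 54.6 FPKM in fasted replicates 1 to 4. In fasted replicates 5 and 6 that sum was 215 and 165 FPKM. Nppa, which defines atrial muscle, was at 0 in fasted replicates 1 to 4 and at 3.15 and 2.80 FPKM in replicates 5 and 6. Of 6 endothelial markers 1, Pecam1, rose without overlap (0.77, adjusted p = 1.63e-04 in limma). The sum of the 6 was 132 to 204 FPKM in the control group and 178 to 255 FPKM in the fasted group. Pecam1, the largest part of that sum, had 79.3 to 121 FPKM and 130 to 180 FPKM. None of the others passed, with Cdh5 (0.17), Kdr (0.47) and Vwf (0.15) above 0 and Tek (-0.08) and Tie1 (-0.03) below. Neither of the 2 listed skeletal muscle markers passed, and 5 others were not listed. Of 6 fibroblast markers 3 rose (Dpep1, Pdgfra and Dcn) and 1 fell (Lum). Their sum was 1398 to 1753 FPKM in the control group and 1522 to 1661 FPKM in the fasted group. Of 6 macrophage markers 1, Adgre1, fell, and of 4 erythroid markers none passed. For comparison, 13.8% of all tested genes rose and 17.9% fell. Fasted replicate 3 also stood apart from the other 11 libraries on the second principal component (-0.84, against -0.10 to 0.32).

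Pdk4 and Pdp2 passed without these libraries as well. Without fasted replicates 5 and 6, Pdk4 had a log2 difference of 2.11 (adjusted p = 4.98e-05) and Pdp2 one of 0.72 (adjusted p = 0.00132). Without control replicate 6 and fasted replicates 1, 2 and 3, where Ucp1 was highest, Pdk4 had 2.60 (adjusted p = 7.19e-05) and Pdp2 had 0.85 (adjusted p = 8.14e-04). Fasted replicate 4, with Ucp1 at 0.305 FPKM and Myh6, the cardiac myosin, at 1.06 FPKM, held 30.0 FPKM of Pdk4. In the same library Cidea of the brown adipocyte list (16.1 FPKM) and Tnnt2 of the cardiac list (31.1 FPKM) lay above all controls. Its white and general adipocyte sum of 78.0 FPKM lay above all controls too. With both adipocyte scores as covariates, Pdk4 had 2.21 (adjusted p = 2.13e-04) and Pdp2 had 0.76 (adjusted p = 0.00280). The part of the other marker differences, that of Pecam1 among the endothelial markers included, was not tested. Both settings that drop several libraries were chosen after the data were seen.

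**Figure D5:**
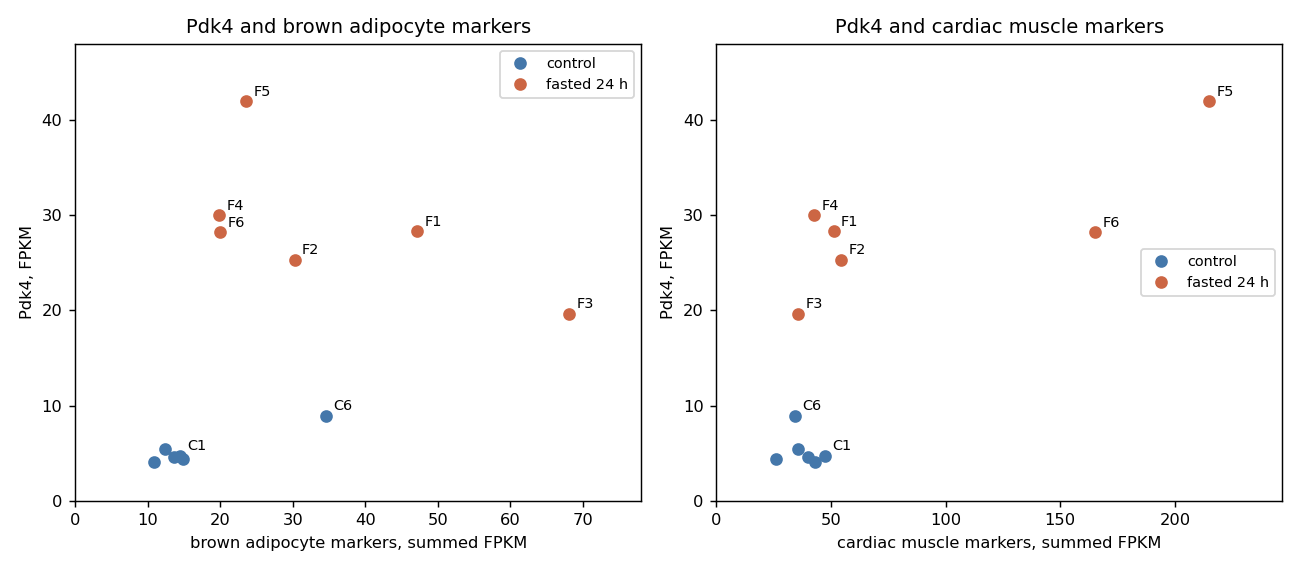
Pdk4 level in FPKM (vertical axis) against the summed FPKM of 4 brown adipocyte markers (left) and 6 cardiac muscle markers (right), 1 point per library, control in blue and fasted in orange, with labels for the fasted libraries and for controls 1 and 6. Fasted replicate 3, with the highest brown adipocyte sum (68.1 FPKM), has the lowest Pdk4 of the fasted group (19.7 FPKM), and fasted replicate 5, with the highest cardiac sum (215 FPKM), has the highest (42.0 FPKM). Cidea, which itself rose, is the largest part of the brown adipocyte sum. Its mean is 10.4 of 16.8 FPKM in controls and 18.3 of 34.9 FPKM in fasted libraries.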

How the data were processed

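Poly(A) RNA of 12 aorta samples, 6 per group, was made into strand-specific libraries with a KAPA kit and read on a NovaSeq instrument, per the labels' protocols. The submitters' processing notes name FastQC, cutadapt, HISAT2, StringTie and the build GRCm38. Versions, settings and the annotation behind the quantification are not stated in the sources used here. FPKM is the unit of the values as the authors deposited them, 1 per transcript and library. Depth is unknown, so counting intervals and detection limits were not given, and FPKM is relative to all other RNA of a library. The authors' table holds transcripts that reach a mean of 0.5 FPKM in either group, and weaker transcripts of the 9 genes are not analysed here.

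Transcripts were assigned to genes through GENCODE M21 on GRCm38 and summed per gene. All 16 member transcripts matched with their version. A gene or transcript was tested if 6 or more libraries reached 0.5 FPKM. The test was limma 3.58.1 in R 4.3.3, two-sided, on log2(FPKM + 1) with a trended eBayes prior. Adding 1 to each FPKM understates the change of low genes. P-values were adjusted over all tested features by Benjamini-Hochberg, with a threshold of 0.05. Transcript shares were tested in limma on the arcsine square root where the gene reached 1 FPKM in all libraries and 2 or more of its transcripts averaged 0.5 FPKM. Only the shares of transcripts with that average were tested. The code was checked on simulated data. The members, gene lists, tests and alternatives were chosen with earlier results of these data known. Named were all 9 members, from each list the 4 or fewer genes of smallest p, and the 5 genes most like Pdk4. Ldha, Foxo3, Ppara and the other genes of the pyruvate list that passed were added after their values were seen. One of the lists fixed for naming is not reported here.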

Additional observations from a re-analysis of the deposited data

Results flagged for a closer look

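In each group of 6, the highest and lowest library was compared with its nearest neighbour by the ratio of Dixon, for the 9 gene levels and 14 sums, shares and ratios. Of 46 groups checked, 9 had a library far from the others, where chance gives about 1 in 20 groups. Control replicate 6 was high for Pdk4 (8.93 FPKM), for the share of Pdk4 in the kinase sum (22.7%), for Pdk4 over Pdp2 (1.26) and for Pdk4 over Pdha1 (0.145), and these 4 share the same Pdk4 value. Fasted replicate 5 was high for Pdk4 over Pdha1 (0.557). Fasted replicate 3 was low for Pdk3 (9.91 FPKM) and high for Mpc2 (40.9 FPKM). Fasted replicate 6 was high for Pdk1 (4.21 FPKM), and control replicate 4 was high for Pdp1 (9.05 FPKM).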

How the results depend on the processing

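Pdk4 and Pdp2 passed under all 25 alternatives tried for them: other pseudocounts, filters, scaling, variance trend, transcript summing and identifier matching, marker covariates, a replicate block, and each library or set of libraries left out. The number of the 9 genes called was 3 to 5 with 1 library left out, 5 of them without fasted replicate 3, and 2 with adipocyte covariates. Calls over all genes ran from 3345 to 4189 with 1 library left out. With adipocyte covariates calls also fell over the whole table, as the transcript calls given below show, so the drop was not particular to the members.

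Pdk2 lost its call with adipocyte covariates (0.16) and without control replicate 6 and fasted replicates 1, 2 and 3 together (0.20), where Mpc2 passed (-0.24). Pdk3 was slightly below 0 with a cardiac covariate (-0.0048) and without fasted replicates 5 and 6 (-0.0141), where Pdp1 also was (-0.0171). With 1 library left out, Pdk3 ran from -0.0027 to 0.0919, Pdpr from 0.13 to 0.29, Mpc1 from -0.28 to -0.13 and Mpc2 from -0.25 to -0.14. Slc16a7 turned to 0.37 with the most abundant transcript alone. ENSMUST00000046754 of Mpc1 turned negative with adipocyte (-0.41) and cardiac covariates (-0.0252), without fasted replicates 5 and 6 (-0.0916), without the 4 libraries (-0.34), and with 1 left out ran from -0.15 to 0.39; ENSMUST00000135302 of Pdpr ran from -0.0842 to 0.0092. Transcript calls were 3332, and 1686 with adipocyte covariates and 1975 without the 4 libraries. Share calls were 51, and 23 to 39 with 1 library left out. The causes were not tested. The cardiac covariate and the sets of libraries were chosen after seeing the data.

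With the replicate block, Pdk2 lost its call (0.26, adjusted p = 0.0617), Pck2 (0.44, adjusted p = 0.0652) and Ppargc1b (0.21, adjusted p = 0.0612) lost theirs, Mpc2 passed (-0.18, adjusted p = 0.0257), and share calls were 0 in limma, with 1494 shares at an unadjusted p below 0.05. Same-numbered libraries were not paired by the labels, their deviations correlated at -0.006 to 0.084, and only replicates 3 and 5 matched best with their own number. Depth is unknown and limits what can be said of transcripts near 0.5 FPKM.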
